A study of Mus musculus with 6 samples.

Results

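Intermediate filament genes were examined in PICs and satellite cells of C57 black 6 mice, sorted from hindlimb muscle at an age of 7 to 9 days. The set holds 8 of the 18193 genes named on the array: Des (desmin), Vim (vimentin), Nes (nestin), Synm (synemin), Sync (syncoilin), Krt18 (keratin 18), Lmna (lamins A and C) and Lmnb1 (lamin B1). They were chosen by name, with earlier results of these data known. Each probe set with 1 of these as its only platform gene symbol was taken, which gave 21 of the 45037 probe sets in the table. Both populations were purified by flow cytometry on CD34 and Sca1 from digested muscle, with 3 arrays for PICs and 3 for satellite cells. PICs are known as interstitial cells marked by PW1, which Peg3 encodes. Satellite cells are the stem cells that lie on muscle fibres. The labels call the arrays biological replicates without saying whether animals were pooled, so p-values measure the spread between these samples.

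Intermediate filaments are rope-like polymers that give cells mechanical strength, and their subunits differ by cell type. In the muscle lineage, vimentin and nestin are known from immature cells, while desmin becomes the main filament protein of the fibre and ties the Z-discs to each other and to the membrane. Synemin and syncoilin join these filaments to the dystrophin-associated complex through dystrobrevin. Keratin 18 is a filament protein of simple epithelia, and lamins form the meshwork under the nuclear envelope.

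The upstream sequences of Des, Sync, Nes and Vim are shown because the first 3 genes had a probe set higher in satellite cells, while Vim had similar levels in both populations. Each run gives the 250 bases before the gene's start in RefSeq on GRCm38.p6, with matches to the E-box letters CANNTG, which myogenic regulatory factors can bind, in capitals. The windows lie at chr1:75360042-75360291 for Des, chr4:129287371-129287620 for Sync, chr3:87970843-87971092 for Nes and chr2:13574061-13574310 for Vim, all on the plus strand.
Des: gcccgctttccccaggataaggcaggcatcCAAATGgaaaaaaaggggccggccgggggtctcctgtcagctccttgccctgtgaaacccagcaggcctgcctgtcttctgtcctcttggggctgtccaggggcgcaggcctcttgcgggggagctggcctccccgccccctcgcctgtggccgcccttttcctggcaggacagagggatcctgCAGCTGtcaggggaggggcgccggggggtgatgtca
Sync: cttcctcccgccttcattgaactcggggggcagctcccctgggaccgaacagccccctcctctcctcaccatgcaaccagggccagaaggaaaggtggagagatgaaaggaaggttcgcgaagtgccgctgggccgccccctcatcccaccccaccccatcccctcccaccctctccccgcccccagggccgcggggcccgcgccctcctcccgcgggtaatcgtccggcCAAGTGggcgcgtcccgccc
Nes: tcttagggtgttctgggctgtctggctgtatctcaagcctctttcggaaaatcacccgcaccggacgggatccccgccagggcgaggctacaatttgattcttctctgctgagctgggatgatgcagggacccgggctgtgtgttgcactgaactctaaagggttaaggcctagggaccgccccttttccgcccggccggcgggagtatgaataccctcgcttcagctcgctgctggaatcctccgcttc
Vim: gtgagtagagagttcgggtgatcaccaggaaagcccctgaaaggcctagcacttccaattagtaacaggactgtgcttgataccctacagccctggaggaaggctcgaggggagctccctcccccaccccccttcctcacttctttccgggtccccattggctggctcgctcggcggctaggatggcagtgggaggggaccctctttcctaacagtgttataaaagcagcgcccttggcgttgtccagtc

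On either strand, the Des window held 2 matches to CANNTG and the Sync window 1, while the Nes and Vim windows held none. Of 32851 RefSeq windows of the same length, 66.2% held at least 1 such match. In Des the match with its first base at -36, counting back from -1 just before the start, read CAGCTG. That form, a subset of CANNTG, was in 13.0% of all windows. Vim was the only window of these 4 with the TATA box letters TATAAA, found in 12.4% of all windows, and no TATAAA match overlapped an E-box match. RefSeq windows were used for 7 of the 8 genes, with none for Lmnb1. Among those not printed, the Synm and Krt18 windows held 1 match to CANNTG each, and the Lmna windows held none. Matches were thus neither limited to genes higher in satellite cells nor present in all of them. The array values do not measure binding at these windows.

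The arrays were alike in overall level, with a median intensity of 10 on each and between 44.7% and 45.5% of probe sets above an intensity of 16. Of 10 myogenic progenitor markers 9 were higher in satellite cells, and of 10 interstitial mesenchymal markers 9 were higher in PICs. The latter 9 include Cd34 (1.92), whose product was itself used for sorting. The summed intensity of the myogenic markers was 5461 to 7322 on PIC arrays and 43945 to 49268 on satellite arrays, and that of the mesenchymal markers was 117810 to 124636 on PIC arrays and 32736 to 45295 on satellite arrays. Of 5 macrophage and blood cell markers tested 0 were called, also at an unadjusted p under 0.05 (limma). The summed intensity of all 10 in that list was 2180, 270 and 127 in PIC replicates 1, 2 and 3. In satellite replicates 1, 2 and 3 it was 2804, 181 and 119, so replicate 1 was the highest on both sides. In sorted populations of this kind, fewer cells of a type and less RNA per cell cannot be told apart.

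Of the 8 genes, 5 were higher in satellite cells on at least 1 probe set, in the order Sync, Lmnb1, Des, Nes and Lmna by the size of the largest difference. Testing required a log2 value over 4 (an intensity over 16) in 3 or more of the 6 arrays. A call required an adjusted p under 0.05 together with a difference, PICs minus satellite cells, of 1 or more on the log2 scale (2-fold). Of the 21 probe sets, 17 were tested and 4 lay too low. Of the 17, 8 were called by limma, all of them higher in satellite cells; 0 were higher in PICs, also at an unadjusted p under 0.05. Over all 20606 probe sets tested, 27.0% were called, with 12.5% on the satellite side and 14.5% on the PIC side. The median difference was -0.96 over the 17 and -0.08 over all probe sets tested. In 11 of the 17 the arrays of the populations did not overlap, against 58.9% of all probe sets tested. Several of these probe sets measure 1 gene, so they are not separate observations.

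**Figure D1:**
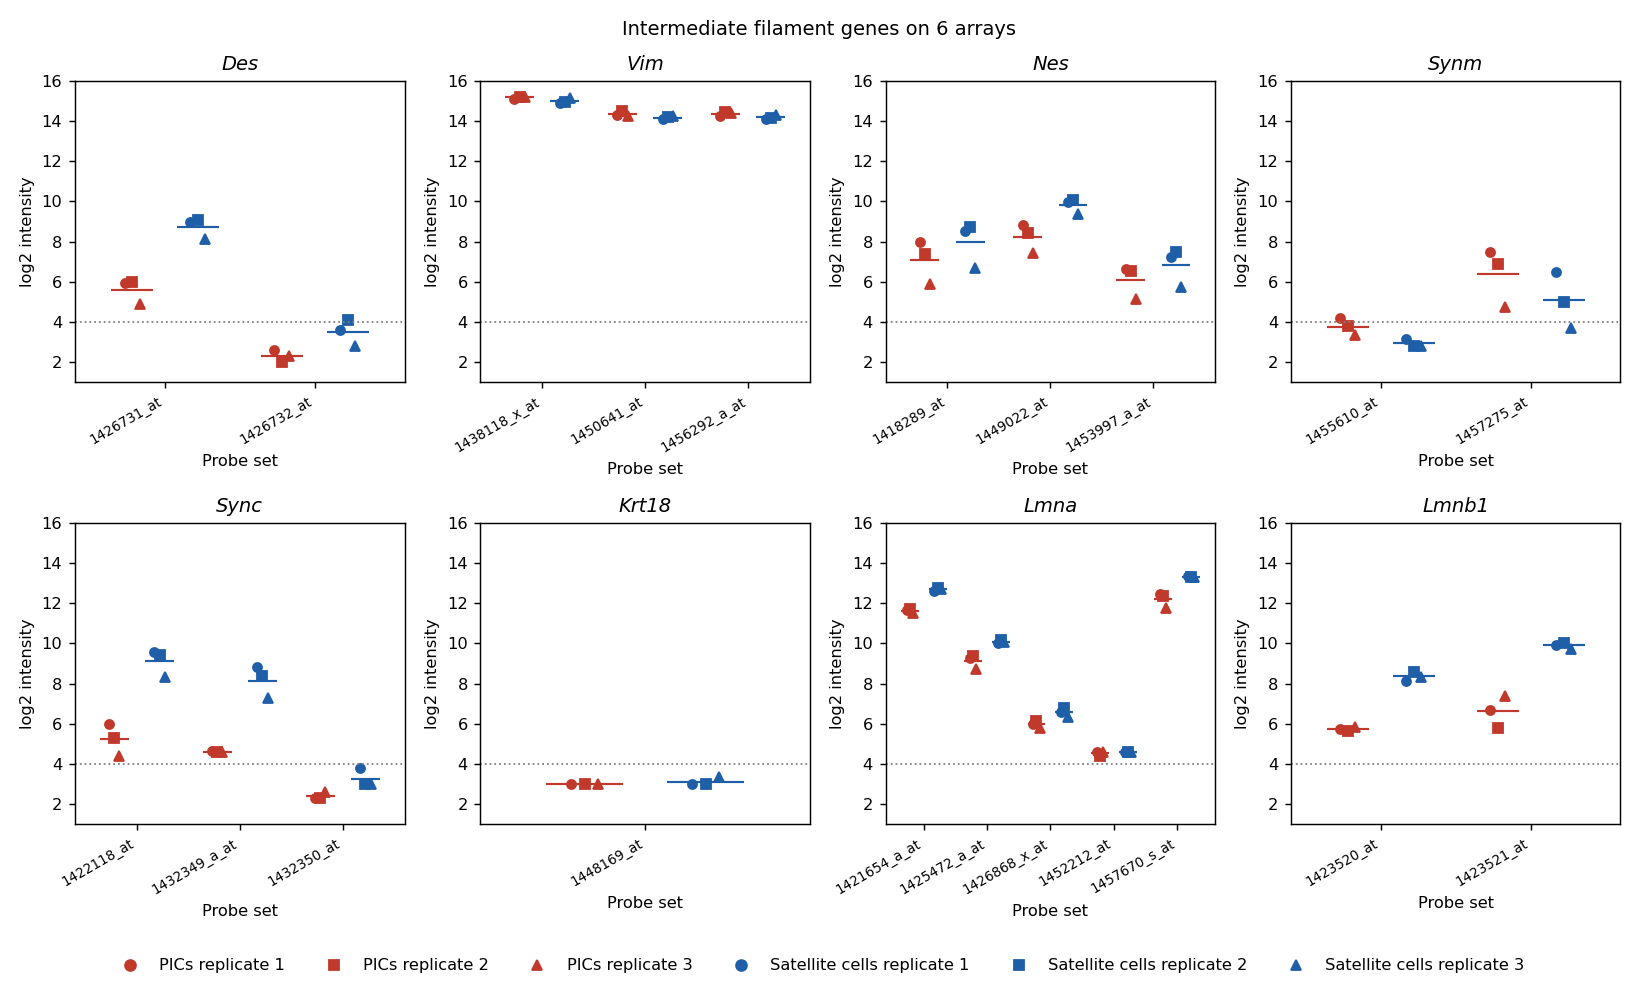
Log2 intensity of the 8 intermediate filament genes, 1 panel per gene, for each of 21 probe sets on 3 PIC arrays (red, left) and 3 satellite arrays (blue, right). Horizontal bars are means, symbols mark replicate numbers and the dotted line is the low value level of 4. Des, Sync and Lmnb1 are separated by population on their tested probe sets, Vim is near the top of the scale in both, and Krt18 stays under the line.

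Des, the gene of the muscle filament protein desmin, was 8.66-fold higher in satellite cells on its tested probe set. Probe set 1426731_at of Des had intensities of 61, 64 and 30 in PICs and 501, 548 and 277 in satellite cells. The lowest satellite array lay above the highest PIC array, and replicate 3 was the lowest of its population on both sides. On the log2 scale Des averaged 5.61 ± 0.61 on PIC arrays and 8.73 ± 0.53 on satellite arrays (SD, n = 3 each), for a difference of -3.11 (95% interval -4.07 to -2.16; limma, adjusted p = 0.00128). Within arrays of equal number, satellite cells exceeded PICs by 8.21-fold, 8.56-fold and 9.23-fold, so the ratio varied less than the levels. All PIC arrays were above the low value level. Only 1.17% of all probe sets tested had a difference as far or farther towards satellite cells.

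The other Des probe set, 1426732_at, was too dim to be tested, with intensities of 6, 4 and 5 in PICs and 12, 17 and 7 in satellite cells. It lay in the same direction, and 1 satellite array exceeded an intensity of 16. Markers of mature fibres, which contain much desmin, were summed beside it. Of 9 fibre markers tested 3 were called towards PICs and 1 towards satellite cells, with a median difference of 1.85. The summed intensity of all 10 in the list was 5268 to 6015 on PIC arrays and 3518 to 7266 on satellite arrays. Acta1, which was not called (-0.26), was the brightest of them and weighs most in these sums. With the replicate block 5 of the markers were called towards PICs, with Myl1 (2.09, adjusted p = 0.0437) and Tnni2 (1.83, adjusted p = 0.0375) added. The part of fibre RNA in the Des values was not tested.

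Sync, the gene of syncoilin, which binds dystrobrevin in muscle, had the largest difference of the set. Probe set 1422118_at of Sync had intensities of 64, 39 and 21 in PICs and 769, 693 and 326 in satellite cells. Every satellite array lay above every PIC array, and replicate 3 was again the lowest on each side. Log2 levels were 5.23 ± 0.81 for PICs and 9.12 ± 0.68 for satellite cells (SD, n = 3 each), which is 14.9-fold higher in satellite cells (difference -3.90, 95% interval -5.12 to -2.67; limma, adjusted p = 0.00139).

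A second Sync probe set gave a similar size. On 1432349_a_at, Sync read 25, 24 and 24 in PICs and 453, 328 and 155 in satellite cells. PIC values were nearly constant and just over the low value level, while satellite values varied by replicate. The difference was -3.55 (95% interval -4.48 to -2.61; limma, adjusted p = 0.000745), or 11.7-fold. The third, 1432350_at, was dim on all arrays, at 5, 5 and 6 in PICs and 14, 8 and 8 in satellite cells, and was not tested.

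Nestin is a large filament protein of progenitor cells that assembles with vimentin or desmin. Its gene, Nes, was higher in satellite cells on 1 of 3 probe sets. The called probe set, 1449022_at, had intensities of 460, 349 and 173 in PICs and 1007, 1071 and 675 in satellite cells, with no overlap. Log2 levels of Nes there were 8.24 ± 0.73 for PICs and 9.81 ± 0.36 for satellite cells (SD, n = 3 each), 2.97-fold apart (difference -1.57, 95% interval -2.53 to -0.61; limma, adjusted p = 0.0181). Without the filter on low values Nes was not called (adjusted p = 0.102), nor without satellite replicate 1 (0.0590) or satellite replicate 2 (0.0666). Over all alternatives its adjusted p ranged between 0.000290 and 0.142.

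The other Nes probe sets had the same direction and overlapped between populations. Probe set 1418289_at read 251, 166 and 60 in PICs and 365, 422 and 102 in satellite cells, a difference of -0.88 (95% interval -2.67 to 0.90; limma, adjusted p = 0.361). Probe set 1453997_a_at read 99, 93 and 35 in PICs and 150, 181 and 53 in satellite cells, a difference of -0.72 (95% interval -2.19 to 0.75; limma, adjusted p = 0.367). With 1 array left out, the difference of 1418289_at ran from -0.30 (without PICs replicate 3) to -1.53 (without satellite replicate 3), and that of 1453997_a_at from -0.23 to -1.27 without the same arrays. On all 3 Nes probe sets replicate 3 was the lowest array of each population, and in each numbered pair the satellite array was the higher one. With the replicate number as a block the adjusted p was 0.0163 and 0.00901 for these 2 probe sets, still under the 2-fold threshold. The mean of the 3 probe sets was not called (difference -1.06, adjusted p = 0.149).

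Synemin links desmin and vimentin filaments to dystrobrevin. Its gene, Synm, was the 1 gene of the set with a larger mean in PICs by over 2-fold, and it was not called. Probe set 1457275_at of Synm had intensities of 176, 117 and 27 in PICs and 91, 32 and 13 in satellite cells. The populations overlapped, with PIC replicate 3 under satellite replicates 1 and 2. Log2 levels were 6.36 ± 1.42 for PICs and 5.07 ± 1.41 for satellite cells (SD, n = 3 each), with a difference of 1.29 (95% interval -1.003 to 3.59; limma, adjusted p = 0.301). The PIC array was the higher one at each replicate number, by 0.95, 1.87 and 1.05 on the log2 scale. With 1 array left out the difference ran from 0.61 (without satellite replicate 3) to 2.10 (without PICs replicate 3). With the replicate number as a block Synm was called higher in PICs (adjusted p = 0.00841), in a fit that called 28.3% of all probe sets tested, and so it was with array weights (difference 1.77, adjusted p = 0.00924). Over all alternatives its adjusted p ranged between 0.00841 and 0.667. The other Synm probe set, 1455610_at, was too low to be tested, at 18, 14 and 10 in PICs and 9, 7 and 7 in satellite cells, without overlap.

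Nestin and synemin are also known from vessel walls, and nestin from glial cells, so markers of those cells stand beside them. Of 10 endothelial markers 0 were called, and 0 had an unadjusted p under 0.05 (limma; the largest difference among them was -0.29 for Tie1 with an adjusted p of 0.819). Their summed intensity was 8234, 6188 and 2403 in PIC replicates 1, 2 and 3 and 6070, 4697 and 4300 in satellite replicates 1, 2 and 3. Of 9 smooth muscle and pericyte markers tested, 1 was higher in PICs (Cspg4, 2.23) and 2 were higher in satellite cells (Acta2, -2.28, and Notch3, -1.26). The sums of that list were 23823, 16522 and 9380 in PICs and 36886, 32783 and 33259 in satellite cells. Acta2 was its brightest gene on satellite arrays and weighs most in their sums, while the pericyte genes Rgs5 (-0.27), Kcnj8 (0.47) and Abcc9 (0.29) were not called. Replicate 3 had the smallest vessel marker sums of the PIC arrays. Of the satellite arrays, replicate 3 had the smallest endothelial sum and replicate 2 the smallest smooth muscle sum. The Nes probe sets and Synm 1457275_at were lowest in replicate 3 of both populations, and so were Des 1426731_at and Sync 1422118_at. Of 6 Schwann and glial markers tested 3 were called towards PICs, and the sums of that list were 14240, 7316 and 3462 in PICs and 10546, 3859 and 4887 in satellite cells. Mbp, which was not called (-0.29), was the brightest gene of that list and weighs most in these sums. The replicate block added calls of Sox10 towards PICs (1.22, adjusted p = 0.0106) and of the smooth muscle gene Tagln towards satellite cells (-1.73, adjusted p = 0.0323). The part of vessel and glial cells in the Nes and Synm values was not tested.

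Vim, the gene of vimentin, the filament protein of mesenchymal cells, was bright on every array and was not called. Probe set 1438118_x_at of Vim had intensities of 35561, 38326 and 37774 in PICs and 31102, 31654 and 36422 in satellite cells, which overlapped. The difference was 0.17 (95% interval -0.11 to 0.46; limma, adjusted p = 0.259). Probe set 1450641_at read 20511, 22910 and 19432 in PICs and 17703, 18647 and 19312 in satellite cells, also 0.17 apart (95% interval -0.11 to 0.45) with no overlap. Probe set 1456292_a_at read 19647, 22701 and 21527 in PICs and 17411, 18380 and 20605 in satellite cells, 0.18 apart (95% interval -0.12 to 0.48). The 3 Vim probe sets thus gave nearly the same difference, and their intervals leave out a 2-fold difference in either direction. The brightest value on any array was 60842, and how far the signal is compressed near that end was not tested.

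Krt18, the gene of keratin 18, lay under the low value level in both populations. Its probe set, 1448169_at, read 8 on all 3 PIC arrays and 8, 8 and 10 in satellite cells, all under an intensity of 16. Its usual partner Krt8 did not pass the filter either.

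Lmnb1, the gene of lamin B1, a permanently farnesylated lamin of the nuclear envelope, was higher in satellite cells on both probe sets. On 1423521_at, Lmnb1 had intensities of 104, 55 and 165 in PICs and 987, 1055 and 854 in satellite cells. Log2 levels were 6.62 ± 0.80 for PICs and 9.91 ± 0.16 for satellite cells (SD, n = 3 each), 9.80-fold higher in satellite cells (difference -3.29, 95% interval -4.25 to -2.34; limma, adjusted p = 0.00104). On 1423520_at, Lmnb1 read 53, 50 and 58 in PICs and 282, 383 and 326 in satellite cells, 6.12-fold apart (difference -2.61, 95% interval -2.98 to -2.25; limma, adjusted p = 0.000154). The populations were far apart on both, and PIC replicate 3 was the highest PIC array here.

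Cycling cells are known to hold more lamin B1 than senescent cells, so proliferation markers are given beside it. All 14 tested were higher in satellite cells, with a median difference of -1.74 and a summed intensity of 18815 to 21169 on PIC arrays and 52284 to 63499 on satellite arrays. Bub1, a kinase of the spindle checkpoint, differed by -2.13 and Top2a, a topoisomerase of dividing cells, by -1.87. The part of cell division in the Lmnb1 values was not tested.

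The Lmna gene, whose transcripts encode lamins A and C, was about 2-fold higher in satellite cells on 2 of its 5 probe sets. Probe set 1457670_s_at of Lmna read 5618, 5261 and 3532 in PICs and 10458, 10039 and 10035 in satellite cells, 2.16-fold apart (difference -1.11, 95% interval -1.59 to -0.64; limma, adjusted p = 0.00465). Probe set 1421654_a_at read 3196, 3403 and 2977 in PICs and 6186, 7014 and 6677 in satellite cells, 2.08-fold apart (difference -1.05, 95% interval -1.33 to -0.78; limma, adjusted p = 0.000746). Neither overlapped between populations. Both lie close to the 2-fold threshold, and the call of 1457670_s_at was lost without PICs replicate 3 (difference -0.90).

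The remaining 3 Lmna probe sets had smaller differences. Probe set 1425472_a_at read 623, 663 and 431 in PICs and 1035, 1173 and 1077 in satellite cells, and its difference of -0.96 fell just short of 2-fold (limma, adjusted p = 0.00733). It was called without PICs replicate 1 (-1.03) and without PICs replicate 2 (-1.08). Probe set 1426868_x_at read 63, 71 and 56 in PICs and 96, 112 and 82 in satellite cells, a difference of -0.61 (limma, adjusted p = 0.0240). Probe set 1452212_at read 24, 21 and 24 in PICs and 24 on all 3 satellite arrays, a difference of -0.06 (95% interval -0.33 to 0.20). Lmna therefore had 2 called probe sets of 5, and 4 of the 5 had an adjusted p under 0.05 with the satellite arrays higher.

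**Figure D2:**
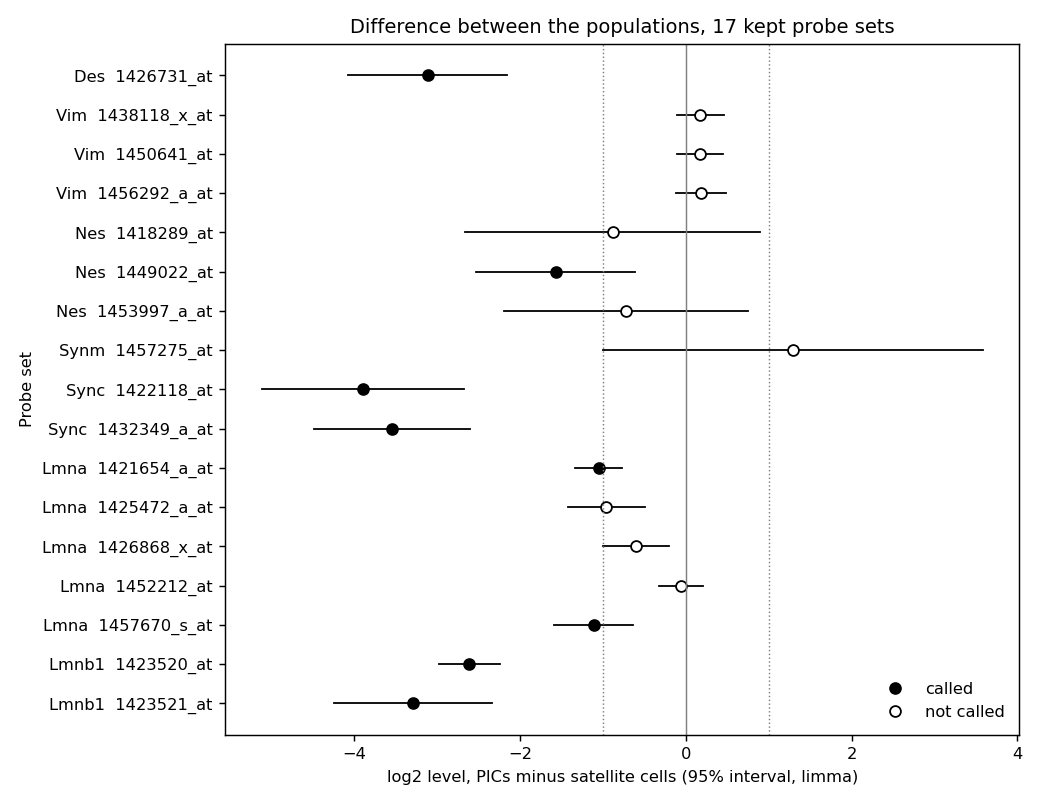
Difference in log2 level, PICs minus satellite cells, for the 17 tested probe sets of 7 genes, with 95% intervals from limma (n = 3 arrays each). Filled points were called, open points were not, and dotted lines mark 2-fold. Sync, Des and Lmnb1 lie farthest to the left, Vim lies near 0 with short intervals, and Synm and 2 of the 3 Nes probe sets have the longest intervals.

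Arrays with the same replicate number were also compared directly. In 12 of the 17 probe sets the satellite array was higher at all 3 numbers, against 42.4% of all probe sets tested. The PIC array was higher at all 3 numbers in 4 of the 17, the 3 of Vim and 1 of Synm. For this direction the share over all probe sets tested was not computed. The 1 probe set outside both counts was 1452212_at of Lmna. Des was the steadiest of the large differences, at -3.04, -3.10 and -3.21 for numbers 1, 2 and 3. Lmnb1 on 1423521_at varied more, at -3.25, -4.26 and -2.37.

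**Figure D3:**
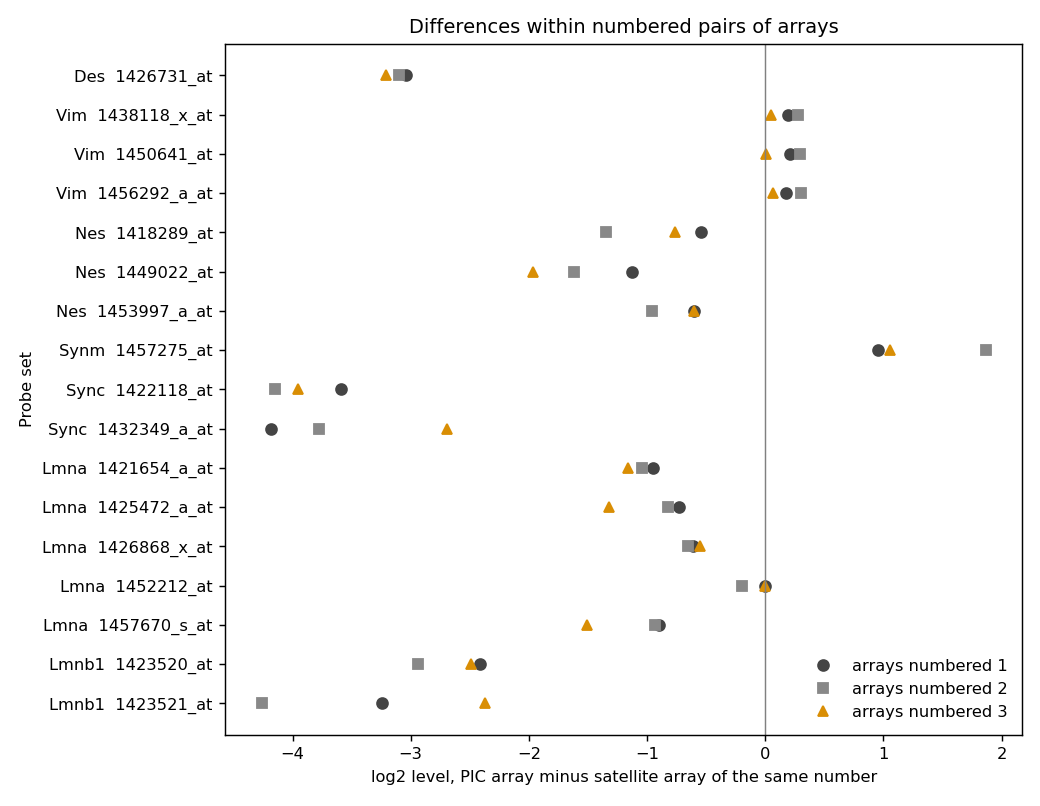
Difference in log2 level between the PIC array and the satellite array of the same replicate number, for 17 probe sets. Symbols and shades mark the 3 numbers. The Nes values all lie left of 0 and the Synm values all lie right of 0, although Synm and 2 of the 3 Nes probe sets overlapped between populations.

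Genes that bind, modify or accompany the filaments were read in 7 lists of 106 genes, of which 63 were tested, with 1 probe set per gene. A total of 24 were higher in satellite cells, while 2, Krt19 and Capn1, were higher in PICs. Those 2, and Krt80, Evpl, Dtna, Neb, Actn2 and Hspb2 on the satellite side, had no array above log2 4 in the lower population. They passed the filter only through the population where they were higher, so their calls are not independent of the filter. Over all 10855 genes tested 29.6% were called, with 13.0% on the satellite side and 16.6% on the PIC side. The median difference was -0.43 over the list genes tested and -0.04 over all genes tested. These counts and medians describe the lists, and no list was tested against other genes.

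Among other cytoplasmic filament genes 22 of 25 were too low to be tested, including Gfap, Prph and the neurofilament genes. Of the 3 tested, Krt19, a keratin of simple epithelia, was higher by at least 6.35-fold in PICs. It averaged 6.67 ± 0.30 there on the log2 scale (SD, n = 3), with no satellite array above the low value level. For Krt80, another keratin gene, satellite cells were at least 2.44-fold higher, with no PIC array above that level. Krt10, a keratin gene of the epidermis, differed by -0.68 and was not called. Of 10 epithelial markers 2 were tested and both, Krt19 and Epcam (1.94), were higher in PICs. The other 8, which include Cdh1, Krt8, Krt5 and Krt14, did not pass the filter. The summed intensity of the 10 was 477 to 564 on PIC arrays and 137 to 185 on satellite arrays, and the part of epithelial RNA in Krt19 was not tested.

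Plakins and desmosomal linkers, which tie filaments to membranes and to other polymers, had 3 of 6 tested genes higher in satellite cells. Plec, the gene of plectin, differed by -1.40 and Pkp4, a plakophilin gene, by -1.77, while for Evpl, the gene of envoplakin, satellite cells were at least 2.61-fold higher. Dst, the gene of dystonin, differed by 0.93 on the probe set used and by 1.07 on another, which was called higher in PICs. Desmosome genes such as Dsp and Dsg2 did not pass the filter.

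Among 11 tested partners of desmin and synemin at costameres and Z-discs, 6 were higher in satellite cells. Neb, the gene of nebulin, which lines the thin filament, was higher by at least 9.72-fold in satellite cells. Its log2 level there was 7.28 ± 0.08 (SD, n = 3), with no PIC array above the low value level. Dtna, which encodes the alpha-dystrobrevin that syncoilin and synemin bind, was higher by at least 7.52-fold in satellite cells. Tln2, a talin of costameres, differed by -2.18, and Actn2, the Z-disc actinin, was higher there by at least 2.08-fold. Vcl (vinculin) and Tln1 were not called, at -0.01 (95% interval -0.33 to 0.31) and 0.03 (95% interval -0.52 to 0.58).

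Of 9 tested chaperones of filament proteins, 3 were higher in satellite cells. Cryab, the gene of alpha B-crystallin, which binds desmin, averaged 11.30 ± 0.15 for PICs and 13.13 ± 0.33 for satellite cells on the log2 scale, 3.55-fold higher in satellite cells (SD, n = 3 each; limma, adjusted p = 0.000705). Hspb1, a small heat shock gene, differed by -1.78, and another small heat shock gene, Hspb2, was higher in satellite cells by at least 2.69-fold. Among kinases and turnover enzymes 2 of 11 were higher in satellite cells and 1 was higher in PICs. Cdk5r1, the activator of the kinase Cdk5, for which nestin is a known scaffold, was 11.8-fold higher in satellite cells (difference -3.57; limma, adjusted p = 0.000867), while Cdk5 itself differed by 0.24 and was not called. Aurkb, a mitotic kinase, differed by -2.13, and Capn1, a calpain protease, was higher by at least 2.09-fold in PICs.

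Of 17 other lamin and lamina-associated genes 4 were higher in satellite cells and 13 were not called. That is 23.5% called, all on the satellite side, where 13.0% of all genes tested were called (29.6% in either direction). The list median of -0.03 was close to the -0.04 of all genes. Lmnb2, the second B-type lamin gene, averaged 7.83 ± 0.14 for PICs and 11.81 ± 0.22 for satellite cells on the log2 scale, 15.8-fold higher in satellite cells (SD, n = 3 each; limma, adjusted p = 7.63e-05). Tmpo, Lbr and Emd, which encode proteins of the inner nuclear membrane, differed by -1.54, -1.06 and -1.05. Lbr and Emd lay close to the 2-fold threshold, and Emd also to that of the adjusted p (limma, 0.0478). Zmpste24, the protease that matures lamin A, differed by 0.55, and the farnesyltransferase genes Fnta and Fntb differed by 0.19 and 0.04, none of them called. Of 6 tested genes that couple the lamina to the cytoskeleton or to pores, 5 were higher in satellite cells, among them the nesprin gene Syne1 (-1.55) and Sun2 (-1.26). Syne1 was called on 1 of its 2 tested probe sets, and Sun1 (-1.02) lay close to the 2-fold threshold. The other nesprin gene tested, Syne2, was not called (0.13, 95% interval -0.51 to 0.78).

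**Figure D4:**
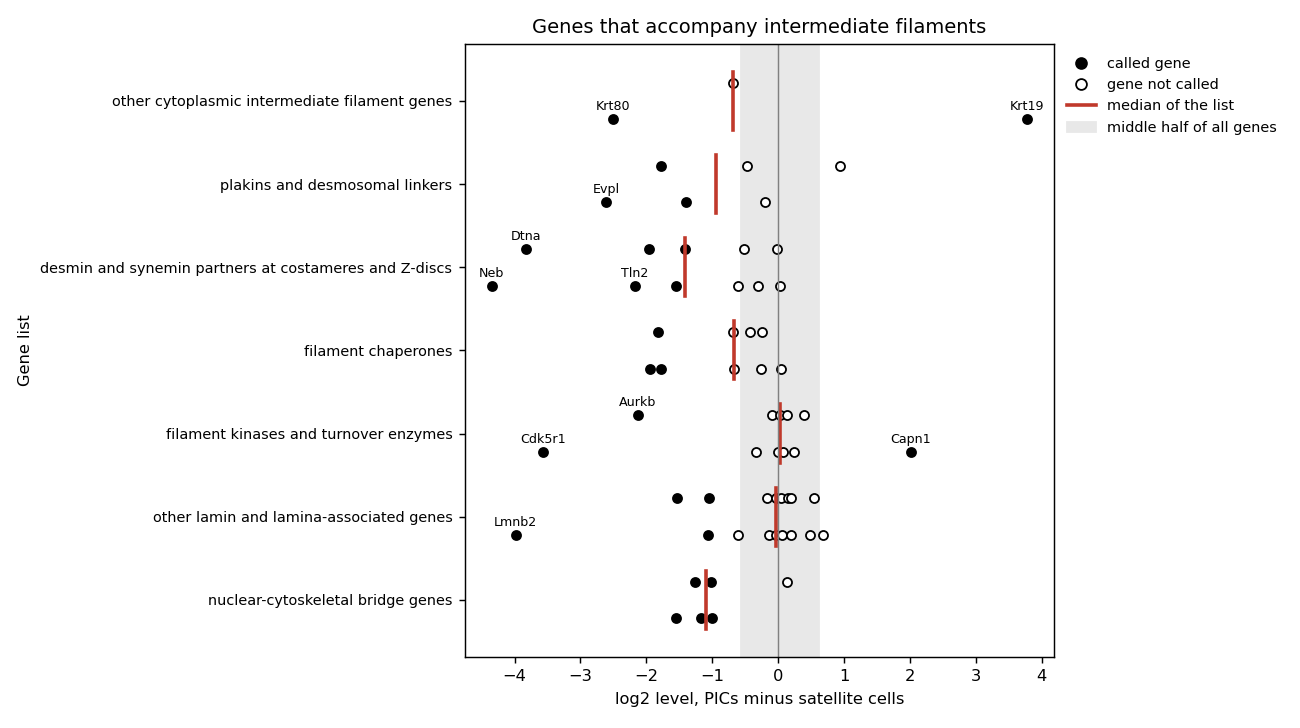
Difference in log2 level, PICs minus satellite cells, for the 63 tested genes of 7 lists, 1 point per gene. Filled points were called, red bars are list medians and the shaded band holds the middle of the distribution of all genes, from its lower to its upper quartile. Called genes lie almost all on the left, with Krt19 and Capn1 on the right. Vertical offsets within a list only separate the points.

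Likeness of pattern was measured as the root mean square distance between centred log2 profiles over the 6 arrays, among 10855 genes with 1 probe set each. Closest to Des were Spg21 (distance 0.13), Lix1 (0.20) and Iffo1 (0.21), and Iffo1 is itself annotated as an intermediate filament family orphan. Closest to Sync were Slc43a2 (0.26), Ripply3 (0.30) and Sox6 (0.32). Nes was nearest to Deptor, Dbt and Dnajc15 (each 0.14), and Lmna to Zyx (0.07), Dtx4 (0.07) and Ppp4r2 (0.08). For Lmnb1 the nearest were Prxl2b (0.33), Cpa4 (0.33) and Maob (0.34), for Synm 5930403N24Rik (0.44), Sntb2 (0.45) and Ankrd12 (0.50), and for Vim Tnks (0.02), Ago1 (0.04) and Wdr11 (0.04). These distances describe 6 arrays of 2 populations and carry no test.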

How the data were processed

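Transcript levels were measured with 1-colour Affymetrix arrays from 200 ng of total RNA per sample, 3 arrays of PICs and 3 of satellite cells. Per the submitters' processing notes, the authors processed the arrays with GCRMA; version and genome build are not given in the sources used here. The authors' deposited intensities are whole numbers on a linear scale, from 2 to 60842. Rounding makes low values coarse, and GCRMA narrows the spread of unexpressed probe sets. Array number limits the precision, and scan batches were not used here.

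Intensities were taken to log2 and compared with limma (version 3.58.1, two-sided moderated test of lmFit and eBayes, under R 4.3.3). P-values were Benjamini-Hochberg adjusted across the 20606 probe sets kept, named or not. List genes were represented by the kept probe set of 1 symbol with the highest mean, and symbols were updated by gene number for 34741 of 34945 probe sets. Probe sets whose names hold an s or x can match other transcripts, so the levels of those of Vim and Lmna are less certain. Where no array of a population exceeded log2 4, only a bound is given ("at least"), taken as the log2 mean of the population with a level less 4. Such genes, also among the markers, passed the filter only through the other population, so no p-value is given with a bound. Genes named are all members, up to 4 called genes per list and direction, and the 3 nearest genes in profile. Top2a and the list genes named without a call were picked outside that rule, with their values known. The members and lists were chosen with earlier results of these data known. On simulated arrays the fit was tested with known changes.

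Replicate numbers are shared by both populations. Deviations from population means over 20606 probe sets correlated at 0.617, 0.293 and 0.640 for equal numbers and at -0.595 to 0.156 for unequal numbers. The deviations sum to 0 within each population, so high values for equal numbers push those for unequal numbers down. The pairing rests on these data alone, since the labels do not state it. The reported fit has no block; the alternatives include the replicate block, other filters, an offset, array weights, quantile normalization, another variance prior, 1 value per gene and each array left out.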

Additional observations from a re-analysis of the deposited data

How the results depend on the processing

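The count of called probe sets over the whole table was 5566, and it was 5046 to 5727 with each array left out in turn. Member probe sets called were 7 to 9 of 17 and list genes called 23 to 26 under the same omissions. With 1 probe set per gene the counts were 3230 genes in all and 5 of 7 member genes (Des, Nes, Sync, Lmna and Lmnb1), and with probe sets averaged by gene they were 3219 and 3 of 7. Both settings count genes in place of probe sets. Averaging also ended the calls of Nes (-1.06, adjusted p = 0.149) and Lmna (-0.76, adjusted p = 0.00289, under 2-fold). Under the replicate block 9 member probe sets were called, the added one being Synm. With array weights 9 were called as well, with Synm and Nes 1418289_at (-1.17) added and Lmna 1457670_s_at (-0.95) lost. No filter gave 7 member probe sets called, while a stricter filter, 16 added before log2, quantile normalization, another variance prior and probe sets of 1 symbol gave 8 each. No tested member difference changed sign under any alternative run; Lmna 1452212_at had no difference left without PICs replicate 2 or without both arrays numbered 2. Des, Sync and Lmnb1 were called in every alternative, and Vim in none, although with array weights its adjusted p was 0.0104 to 0.0124 at under 2-fold. Leaving out both arrays of a number was added after seeing the data and gave 6 to 8. Nes 1449022_at was then not called without number 1 (adjusted p = 0.0545) or 2 (0.142), nor was Lmna 1457670_s_at without number 2 (0.0631) or 3 (difference -0.91), or Lmna 1421654_a_at without number 3 (-0.998). Low intensity limits 4 member probe sets, which were tested only in the fit without the filter. None of them was called there (limma, adjusted p = 0.128 to 0.667).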
